A study of Saccharomyces cerevisiae with 12 samples.

Results

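The genes described here are 10 genes of the mating pheromone response of budding yeast (Saccharomyces cerevisiae): FUS1 (YCL027W), AGA1 (YNR044W), FUS2 (YMR232W), FUS3 (YBL016W), FAR1 (YJL157C), KAR4 (YCL055W), PRM1 (YNL279W), STE12 (YHR084W), GPA1 (YHR005C) and SST2 (YLR452C). They were taken as the gene probes whose name or locus is on that list, and all 10 were found among the 6252 gene probes of the arrays, each with 2 spots. The list was chosen by its members' levels on these same arrays, so their values below are a description and carry no p-value.

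Haploid yeast cells of mating type a and of mating type alpha each secrete a peptide pheromone and carry a receptor for the pheromone of the other type. A bound receptor frees the Gβγ dimer from the Gα subunit Gpa1, and a kinase cascade on the scaffold Ste5 then activates the MAP kinase Fus3. Fus3 acts on Far1, which halts the cell cycle in G1 and guides growth toward the partner, and on Ste12, the transcription factor of the response. Ste12, in part together with Kar4, induces genes of agglutination, cell fusion and nuclear fusion, and it also induces genes that damp the pathway, such as SST2.

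Transcript levels were measured on 12 one-colour arrays hybridised with Cy3-labelled total RNA, 3 from wild-type cells and 3 from each strain labelled as deleted for hsp31, hsp32 or hsp33. The deleted genes belong to the DJ-1 superfamily of stress proteins and chaperones. All cultures were collected at the diauxic shift from synthetic complete medium, and no pheromone treatment is named in the labels. Replicate 3 of the hsp33 group lacks the knockout tag that its title and genotype field carry on the other 2, and was placed by its source name, which does call the strain deleted. Strain background, mating type and the construction of the deletions are not given in the sources used here, and nothing says whether the 3 arrays of a group came from separate cultures, so any p-value measures only the spread between these arrays, which may be technical. Levels are normalized log2 signals, with SD over the 3 arrays of a group, and differences are log2 estimates ± SE from a limma fit over all 5863 genes tested. A gene counts as called at an adjusted p under 0.05.

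Median foreground intensity per array ran from 607 to 1153 over a median local background of 66 to 93, and 91.4% to 97.1% of gene probes lay above the negative controls on 11 arrays. On hsp32 deletion replicate 2 the threshold from the negative controls was 284 in intensity units, against 35.4 to 53.6 on the others, and 80.3% of probes passed it. In total 8 of the 10 pheromone response genes were above background on all 12 arrays, while FUS2 and PRM1 missed the threshold on that array alone. No spot of the 10 genes was saturated. The HSP31 probe was not above background on the 3 hsp31 deletion arrays (6.65 ± 0.15 log2 units, against 12.65 ± 0.14 in wild type). HSP32 and HSP33 are near-identical and their probes kept signal on the arrays of their own deletion, so they do not check those labels. The HSP33 probe was at 11.11 ± 0.14 in wild type, 9.89 ± 0.15 in the hsp31 deletion, 9.37 ± 0.042 in the hsp33 deletion and lowest, at 8.90 ± 0.11, in the hsp32 deletion. The HSP32 probe was at 12.50 ± 0.19, 11.40 ± 0.18 and 11.02 ± 0.19 in wild type and the hsp31 and hsp33 deletions. It too was lowest in the hsp32 deletion, at 10.17 ± 0.089.

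The arrays labelled hsp33 deletion stood apart in mating type markers, and this bears on every comparison with them below. The HMRA1 probe, which reads the a1 regulator of a cells and may not tell its silent from its active copy, was at 12.99, 12.72 and 12.51 on the wild-type arrays in replicate order, at 12.50, 12.52 and 12.44 on the hsp31 deletion arrays and at 12.22, 11.99 and 12.15 on the hsp32 deletion arrays. On the hsp33 deletion arrays it was at 6.59, 7.13 and 6.85, not above background on any of them. The a1 signal was therefore at least 45.1-fold lower in the hsp33 deletion than in wild type (limma adjusted p = 2.58e-12). Bounds of this kind are computed between group means, with the dim group set at the lowest signal above background on each of its arrays.

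Genes specific to alpha cells moved the other way on the hsp33 deletion arrays. MF(ALPHA)1, a gene of the alpha-factor pheromone, was not above background on any wild-type array and was at least 31.9-fold higher in the hsp33 deletion (limma adjusted p = 2.58e-12). In the hsp31 and hsp32 deletions MF(ALPHA)1 was above background on all 3 arrays. It was at least 1.64-fold and 2.08-fold higher than in wild type (limma adjusted p = 7.09e-05 and 1.12e-06). All 5 alpha-cell markers were called higher in the hsp33 deletion than in wild type, where 29.0% of all genes were. STE3, the receptor for a-factor, rose by 2.41 ± 0.11, AFB1 by 1.99 ± 0.13 and SAG1, the alpha-agglutinin, by 1.59 ± 0.092 on the log2 scale. MF(ALPHA)2 was above background on 1 of the 3 wild-type arrays and on all 3 hsp33 deletion arrays, and no size is given for its difference. The summed linear signal of these 5 markers was 1748 to 1806 in wild type, 1596 to 1872 in the hsp31 deletion, 1667 to 1765 in the hsp32 deletion and 10866 to 12183 in the hsp33 deletion.

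Genes specific to a cells rose in the hsp31 and hsp32 deletions and fell in the hsp33 deletion, 7 of 7 in each case. Over all genes 25.7%, 33.3% and 29.0% were called higher and 30.4%, 36.7% and 32.4% lower in the hsp31, hsp32 and hsp33 deletions. No result is read from the haploid and sporulation counts below. MFA1, an a-factor gene, changed by 1.59 ± 0.096, 1.54 ± 0.096 and -2.02 ± 0.096 log2 when hsp31, hsp32 and hsp33 were deleted. STE2, the receptor for alpha-factor, changed by 0.96 ± 0.087, 1.31 ± 0.087 and -1.34 ± 0.087. The summed signal of the 7 markers was 8118 to 8749 in wild type, 18135 to 19024 in the hsp31 deletion, 18363 to 21091 in the hsp32 deletion and 3189 to 3303 in the hsp33 deletion, where all 7 were still above background on all 3 arrays. Of these 7, BAR1 also stands among the brakes below and AGA2 and ASG7 among the other targets. Of 6 markers of haploid cells 0, 2 and 2 rose and 2 fell in each of the hsp31, hsp32 and hsp33 deletions, among them STE4, the Gβ subunit (0.043 ± 0.076, not called, 0.28 ± 0.076 and 0.34 ± 0.076), and NEJ1, a gene of DNA end joining (-0.46 ± 0.084, -0.69 ± 0.084 and -0.56 ± 0.084). Of 4 tested markers of sporulating diploids NDT80, the activator of middle sporulation genes, rose (0.42 ± 0.11, 0.66 ± 0.11 and 0.57 ± 0.11) and the meiotic kinase gene IME2 fell (-0.51 ± 0.092, -0.64 ± 0.092 and -0.43 ± 0.092), the outer values not called under 75th percentile scaling (-0.18 and -0.078). IME1, the inducer of meiosis, fell in the hsp33 deletion (-0.36 ± 0.12), a change of no fixed sign across scalings (0.0059 under 75th percentile scaling). The call of IME1 was also lost without wild-type replicate 2 (-0.28) or hsp33 deletion replicate 2 (-0.25). In the hsp33 deletion arrays the labelled genotype and the alpha-type marker pattern cannot be told apart, and whether the pattern has a part in the differences below was not tested. As in any bulk RNA, fewer cells that express a gene and less of its RNA per cell cannot be told apart either.

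**Figure D1:**
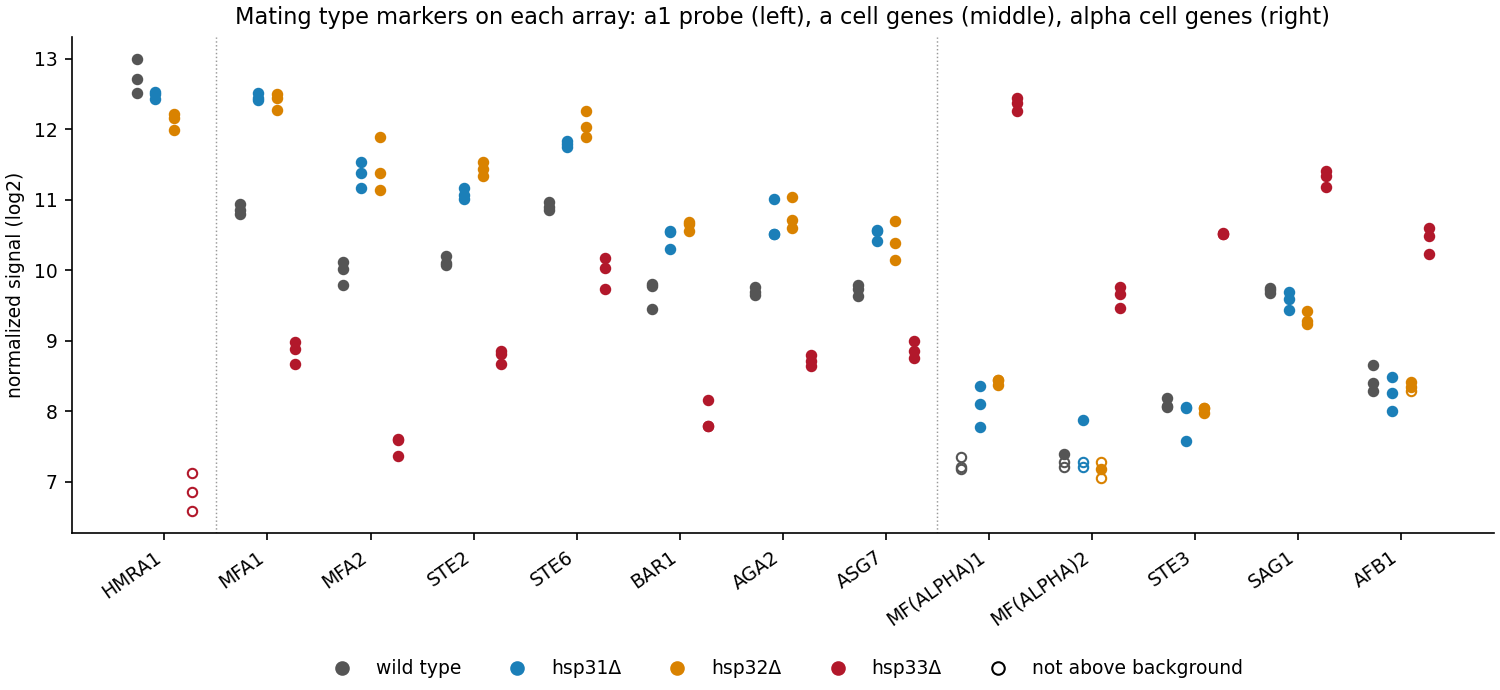
Normalized log2 signal of mating type markers, 1 point per array, for the a1 probe HMRA1, 7 genes of a cells and 5 genes of alpha cells in wild type and the 3 deletions; open points are not above background. The hsp33 deletion arrays lie below all others for HMRA1 and the a-cell genes and above all others for the alpha-cell genes.

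Across the 10 pheromone response genes, levels were mostly lowest in wild type, intermediate in the hsp31 and hsp32 deletions and highest in the hsp33 deletion. That order of group means, with the hsp31 deletion below the hsp32 deletion, held for 7 of the 10 genes. AGA1 and FUS1 differed most from wild type in the hsp33 deletion, 7.81-fold and 5.18-fold. GPA1, FUS2 and FUS3 followed other orders.

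**Figure D2:**
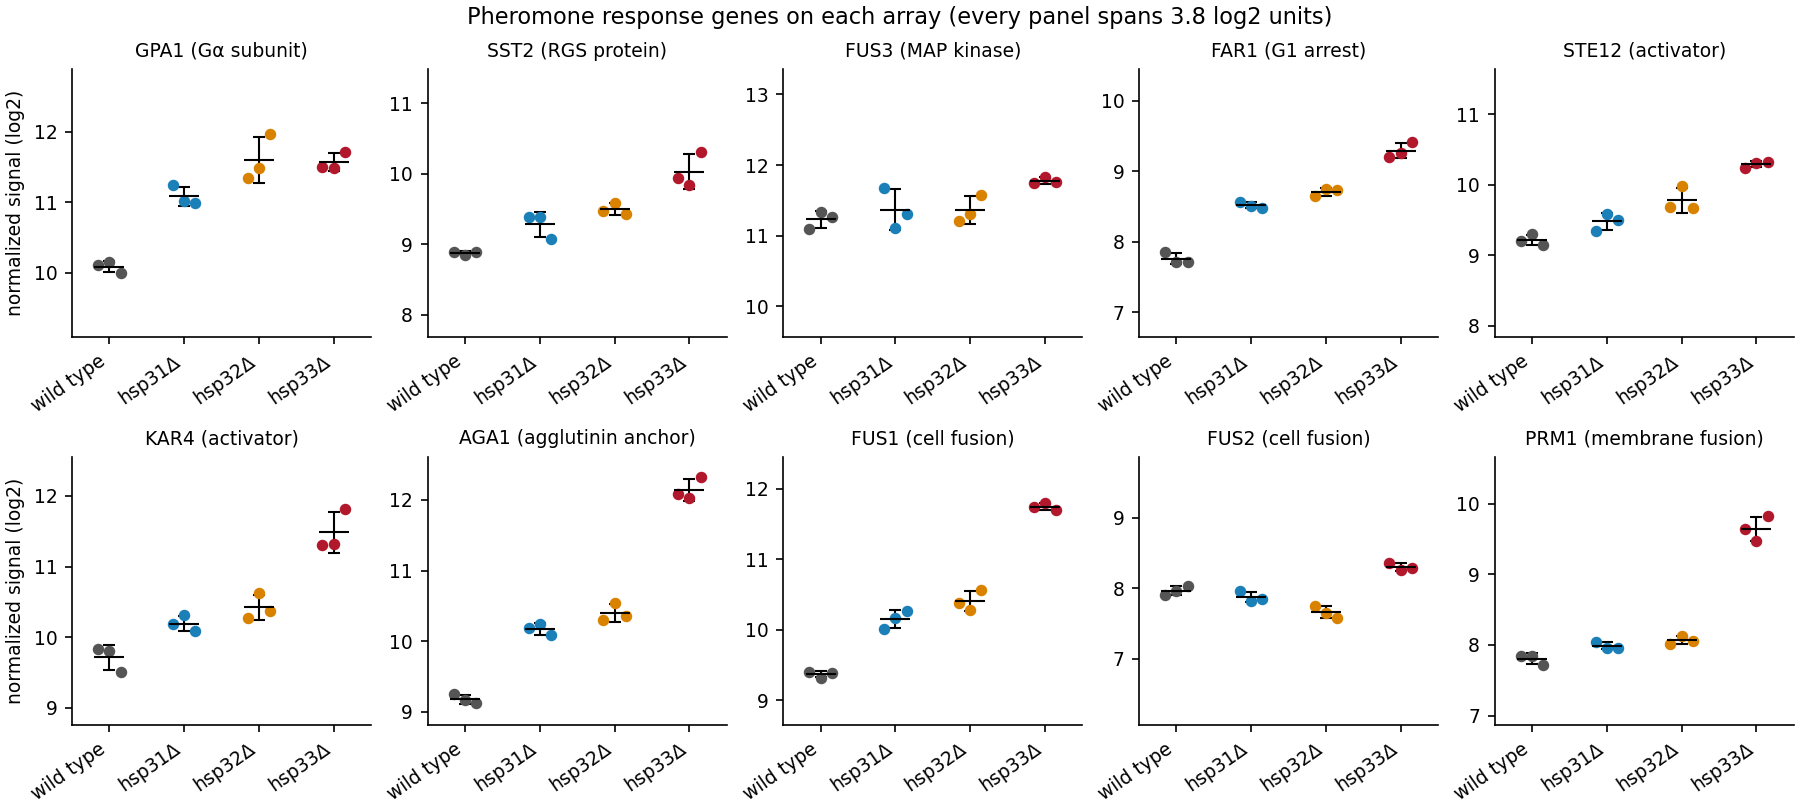
Normalized log2 signal of the 10 pheromone response genes on each of 12 arrays, with the mean and SD of the 3 arrays of each group; every panel spans the same log2 range. All hsp33 deletion arrays lie above all wild-type arrays in each of the 10 panels, and in the GPA1 panel the hsp32 and hsp33 deletions overlap.

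GPA1 encodes the Gα subunit that couples the receptors to the cascade and holds it off in the absence of pheromone. Its level was 10.11, 10.16 and 9.998 on wild-type replicates 1, 2 and 3, and 11.24, 11.01 and 10.99 in the hsp31 deletion. It reached 11.35, 11.49 and 11.97 in the hsp32 deletion and 11.50, 11.49 and 11.72 in the hsp33 deletion. All 9 deletion arrays were above all wild-type arrays, and the hsp31 deletion arrays were below those of the other deletions, which overlapped. The differences from wild type were 1.00 ± 0.14, 1.52 ± 0.14 and 1.48 ± 0.14 for hsp31, hsp32 and hsp33. GPA1 was the 1 gene of the 10 with its highest group mean in the hsp32 deletion, and the hsp33 minus hsp32 difference was -0.035 ± 0.14. That difference took both signs across the alternative settings, from -0.24 to 0.15.

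SST2 encodes the RGS protein that speeds GTP hydrolysis by Gpa1 and so desensitises the cell. It was at 8.89, 8.85 and 8.89 in wild type and at 9.39, 9.38 and 9.08 in the hsp31 deletion. The hsp32 deletion gave 9.47, 9.59 and 9.43 and the hsp33 deletion 9.94, 9.84 and 10.31. The 4 groups did not overlap in this order, but the hsp31 and hsp32 groups were close, at 9.28 ± 0.18 and 9.50 ± 0.082 (SD, n = 3). SST2 differed from wild type by 0.40 ± 0.12, 0.62 ± 0.12 and 1.15 ± 0.12, and the hsp33 deletion was above the hsp31 deletion by 0.75 ± 0.12.

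FUS3, the MAP kinase of the pathway, was at 11.10, 11.34 and 11.26 in wild type, 11.68, 11.11 and 11.31 in the hsp31 deletion and 11.20, 11.31 and 11.58 in the hsp32 deletion, and these 3 groups overlapped. The hsp33 deletion arrays, at 11.74, 11.83 and 11.76, lay above all 9 others. Differences from wild type were 0.14 ± 0.13 and 0.13 ± 0.13 in the hsp31 and hsp32 deletions, not called, and their sign turned under median scaling (-0.11 and -0.18). In the hsp33 deletion the difference was 0.55 ± 0.13, which fell to 0.28 under median scaling and was then not called.

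FAR1, the Cdk inhibitor and polarity adaptor that carries out G1 arrest, was at 7.85, 7.72 and 7.71 in wild type. It was at 8.57, 8.51 and 8.48 in the hsp31 deletion, 8.64, 8.74 and 8.74 in the hsp32 deletion and 9.20, 9.26 and 9.41 in the hsp33 deletion. No group overlapped its neighbour. The steps from wild type were 0.76 ± 0.082, 0.95 ± 0.082 and 1.53 ± 0.082. The hsp32 and hsp31 deletions differed by 0.19 ± 0.082, which was not called. FAR1 was dim in wild type, with a background-subtracted intensity of 63.5 to 106 against thresholds of 45.7 to 48.7.

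STE12, the transcription factor of the response, was at 9.21, 9.30 and 9.15 in wild type and 9.34, 9.59 and 9.51 in the hsp31 deletion. It was at 9.69, 9.98 and 9.67 in the hsp32 deletion and 10.24, 10.30 and 10.32 in the hsp33 deletion. The groups did not overlap. Its differences from wild type were 0.26 ± 0.099, 0.56 ± 0.099 and 1.07 ± 0.099, of which the first was no longer called without wild-type replicate 1 or 3, without hsp31 deletion replicate 2 or 3, or within slide 1.

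KAR4, which acts with Ste12 on genes of nuclear fusion, was at 9.83, 9.80 and 9.50 in wild type, 10.18, 10.31 and 10.09 in the hsp31 deletion and 10.28, 10.62 and 10.38 in the hsp32 deletion. The last 2 overlapped. In the hsp33 deletion it reached 11.31, 11.32 and 11.82, above every other array. The differences from wild type were 0.48 ± 0.14, 0.71 ± 0.14 and 1.77 ± 0.14. Without wild-type replicate 3, the lowest of its group, the difference in the hsp31 deletion was 0.37 and was not called.

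Among the structural targets, AGA1 encodes the wall-anchored subunit of a-agglutinin, which in a cells binds the adhesive subunit Aga2. It had the largest difference of the 10 genes in the hsp33 deletion. Its level was 9.25, 9.16 and 9.12 in wild type and 10.19, 10.24 and 10.09 in the hsp31 deletion. The hsp32 deletion gave 10.30, 10.54 and 10.36 and the hsp33 deletion 12.09, 12.02 and 12.32. All 4 groups were separate in this order. AGA1 differed from wild type by 1.00 ± 0.098, 1.22 ± 0.098 and 2.97 ± 0.098, and the hsp33 deletion exceeded the hsp31 deletion by 1.97 ± 0.098 and the hsp32 deletion by 1.75 ± 0.098. Its partner gene AGA2, an a-cell gene, was higher in the first 2 deletions (0.98 ± 0.14 and 1.08 ± 0.14) and lower in the hsp33 deletion (-0.98 ± 0.14, limma adjusted p = 3.13e-05).

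FUS1, a membrane protein of the fusing cell tip and a common reporter of the response, was at 9.40, 9.32 and 9.39 in wild type and 10.01, 10.17 and 10.27 in the hsp31 deletion. It was at 10.38, 10.28 and 10.56 in the hsp32 deletion and 11.74, 11.79 and 11.70 in the hsp33 deletion. The hsp33 arrays were more than 1 log2 unit above every other array, and the other groups were separate but close. FUS1 differed from wild type by 0.78 ± 0.093, 1.04 ± 0.093 and 2.37 ± 0.093.

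PRM1, a membrane protein that acts in plasma membrane fusion, differed from the pattern of FUS1 in that nearly all of its change lay in the hsp33 deletion. It was at 7.85, 7.85 and 7.72 in wild type, 8.05, 7.96 and 7.96 in the hsp31 deletion and 8.02, 8.13 and 8.05 in the hsp32 deletion. In the hsp33 deletion it was at 9.64, 9.47 and 9.82. The 9 arrays of the first 3 groups lay within 0.41 log2 units, and no hsp33 array overlapped them. The differences from wild type were 0.18 ± 0.093, not called, then 0.26 ± 0.093 and 1.84 ± 0.093. Across the alternative settings they ran from 0.13 to 0.44, 0.22 to 0.54 and 1.74 to 2.24. PRM1 was dim in wild type, with a background-subtracted intensity of 64 to 121 against thresholds of 45.7 to 48.7, unlike FUS1, at 360 to 591. The call in the hsp32 deletion was lost with cyclic loess, without wild-type replicate 3 and without hsp32 deletion replicate 2, the array on which PRM1 was not above background.

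FUS2, a cytoplasmic protein that promotes cell fusion, was the 1 gene of the 10 called lower than wild type in a deletion. It was at 7.90, 7.96 and 8.02 in wild type, 7.96, 7.82 and 7.85 in the hsp31 deletion, 7.75, 7.65 and 7.58 in the hsp32 deletion and 8.36, 8.25 and 8.29 in the hsp33 deletion. The hsp32 deletion arrays were below, and the hsp33 deletion arrays above, all others, while wild type and the hsp31 deletion overlapped. The differences from wild type were -0.086 ± 0.081, not called, then -0.30 ± 0.081 and 0.34 ± 0.081. Scaling to the 75th percentile turned the first to 0.20 and left the second at -0.045, no longer called.

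**Figure D3:**
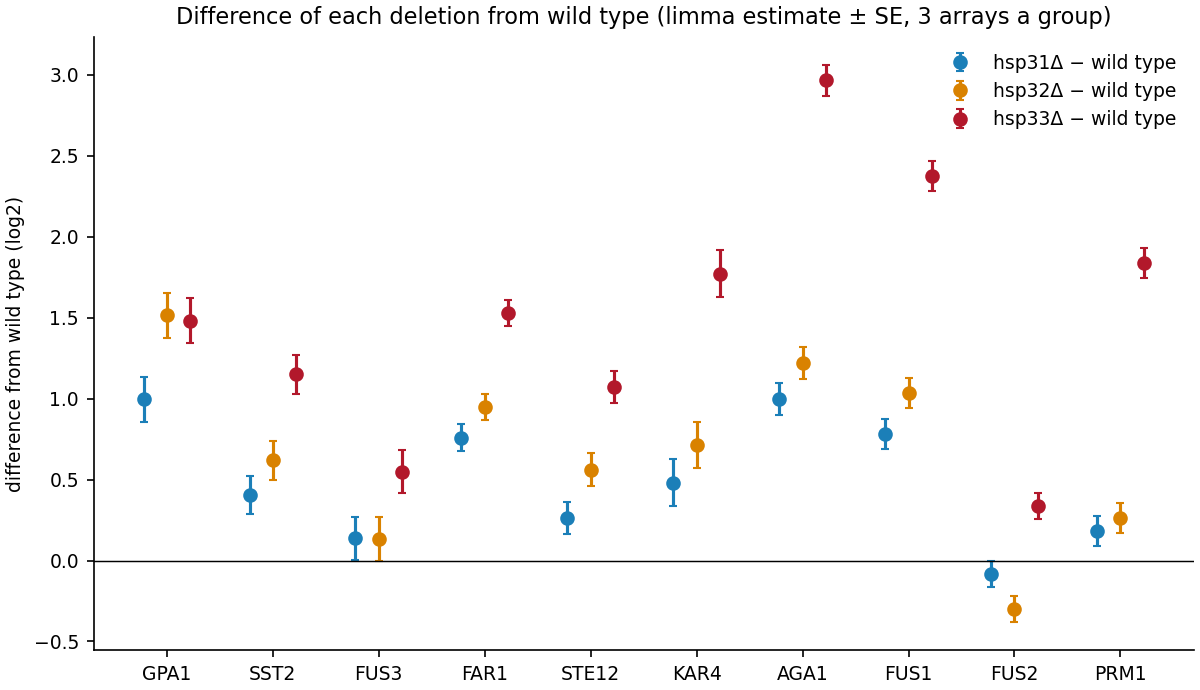
Difference of each deletion from wild type on the log2 scale for the 10 genes, as limma estimates with SE bars, ordered by role from the Gα subunit to the fusion proteins. The hsp33 deletion has the highest point for 9 genes, and GPA1 has its highest in the hsp32 deletion.

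Counted over the 10 genes, the hsp31 deletion had 7 called higher than wild type and 0 lower, where 25.7% of all 5863 genes were called higher and 30.4% lower. The hsp32 deletion had 8 higher and 1 lower, against 33.3% and 36.7% of all genes. In the hsp33 deletion all 10 were higher, against 29.0% higher and 32.4% lower of all genes. All 3 deletion arrays lay above all 3 wild-type arrays for 8, 8 and 10 genes in the hsp31, hsp32 and hsp33 deletions, and for 29.2%, 36.2% and 33.8% of all genes. The median difference over the 10 genes was 0.44, 0.67 and 1.51, beside -0.031, -0.036 and -0.032 over all genes. Since the genes were picked on these arrays, the counts describe them and do not test them, and the 3 comparisons share the wild-type arrays. Scaling to the 75th percentile moved the median of all genes to 0.12, 0.17 and 0.15 and the share of called genes that were higher from 45.8%, 47.6% and 47.2% to 61.1%, 61.3% and 61.8%, and under median scaling the hsp32 median was -0.10. At the 75th percentile 8, 8 and 10 of the 10 genes were called higher and 0 called lower. Of all genes 60.2%, 71.8% and 65.4% were called under that scaling, and 61.1%, 61.3% and 61.8% of these were higher. The shares of 25.7%, 33.3% and 29.0% above do not apply to it.

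Between deletions, the hsp33 and hsp31 arrays were the most alike over all genes, with 2.87% called higher and 1.96% lower in the hsp33 deletion. Of the 10 genes 8 were called higher in the hsp33 than in the hsp31 deletion, with a median difference of 0.79 against 0.0099 over all genes. AGA1 (1.97 ± 0.098), PRM1 (1.66 ± 0.093), FUS1 (1.59 ± 0.093) and KAR4 (1.29 ± 0.14) had the largest differences, and FUS3 (0.41 ± 0.13) and GPA1 (0.48 ± 0.14) were not called. FUS2 (0.42 ± 0.081) was no longer called under 75th percentile scaling (0.46) or median scaling (0.43), on the 2 groups alone (0.42) or without hsp31 deletion replicate 2 (0.39), while FUS3 was called in 3 of 26 alternatives, among them without hsp31 deletion replicate 1 (0.57), and GPA1 in 4, among them without hsp32 deletion replicate 1 or 3 (0.49 in either case). Against the hsp32 deletion, 9 genes were called higher in the hsp33 deletion, all but GPA1, where 9.57% of all genes were higher and 9.14% lower. The median difference was 0.61 over the 10 genes and 0.0021 over all genes. The largest were those of AGA1 (1.75 ± 0.098), PRM1 (1.58 ± 0.093) and FUS1 (1.34 ± 0.093). FUS3 (0.42 ± 0.13) was called in 13 of 27 alternatives, and leaving out any 1 array other than hsp31 deletion replicate 1 or 2 or hsp32 deletion replicate 3 ended its call.

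**Figure D4:**
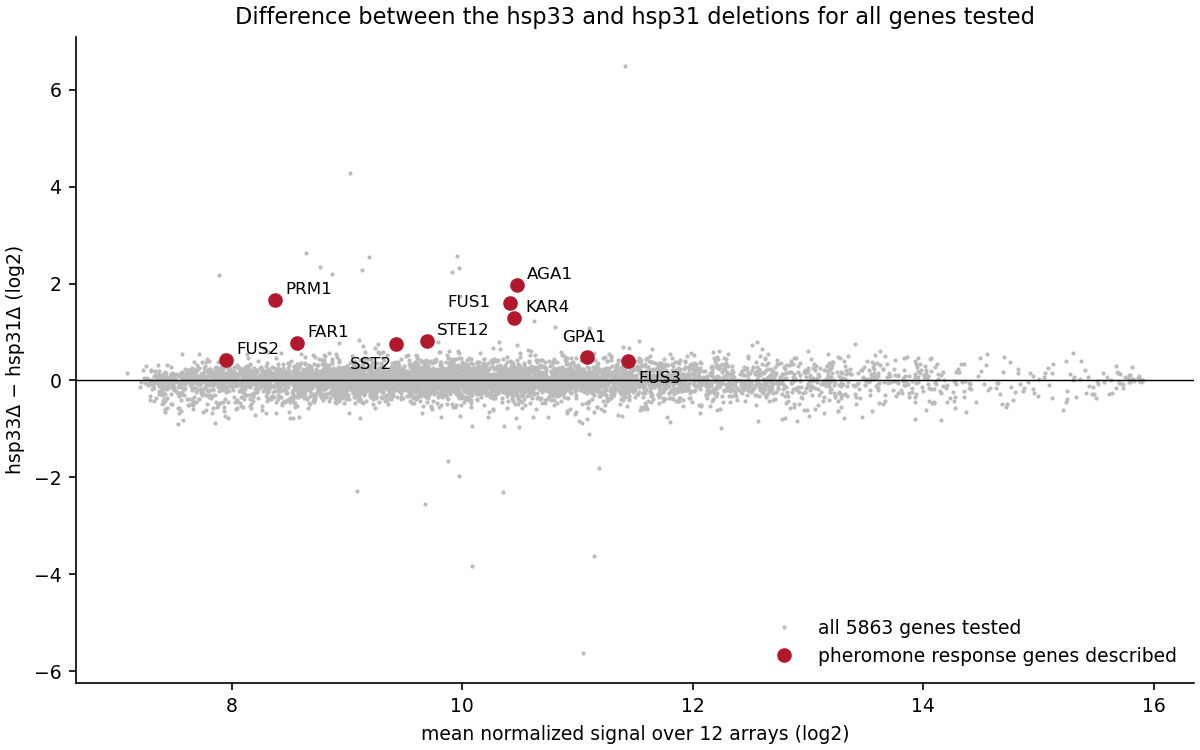
Difference between the hsp33 and hsp31 deletions (log2) against the mean normalized log2 signal over 12 arrays for 5863 genes, with the 10 pheromone response genes marked. All 10 lie above 0, from 0.41 for FUS3 to 1.97 for AGA1.

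The hsp32 and hsp31 deletions differed less in these genes. FUS1 (0.26 ± 0.093), STE12 (0.30 ± 0.099) and GPA1 (0.52 ± 0.14) were called higher in the hsp32 deletion and FUS2 (-0.22 ± 0.081) lower, where 19.8% of all genes were higher and 17.8% lower. The median was 0.22 over the 10 genes and 0.011 over all genes. The count of 4 fell to 1 with the slide as a block, on the arrays of these 2 groups alone, or without hsp31 deletion replicate 1. It fell to 2 without wild-type replicate 1, 2 or 3, hsp31 deletion replicate 2, hsp32 deletion replicate 2 or 3, or hsp33 deletion replicate 1 or 2. Over all genes 34.8%, 29.1% and 34.7% were called in the fits with a count of 1. The share was 31.4% to 36.3% in those with a count of 2, against 37.6% in the main fit. GPA1 was called in every one of the 26 alternatives run.

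The arrays were on 2 slides, inferred from the files, each with all 4 groups. Within slide 1 the median of the 10 differences from wild type was 0.54, 0.59 and 1.64 for hsp31, hsp32 and hsp33, and within slide 2 it was 0.25, 0.68 and 1.43. All 10 genes were higher in the hsp33 deletion within either slide, and 9 of 10 in the hsp32 deletion. In the hsp31 deletion 9 of 10 were higher within slide 1 (2 arrays against 2) and 8 of 10 within slide 2 (1 against 1). With the 2 spots of a probe read apart, both spots were higher than wild type for 8, 9 and 10 of the genes, both were lower for FUS2 in the first 2 deletions, and the spots of PRM1 had opposite signs in the hsp31 deletion.

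Variation between the arrays of a group was partly shared. On hsp33 deletion replicate 3, the only array of its group on slide 1, 7 of the 10 genes had their highest level of the group. This is the array placed by its source name, and without it 10, 8 and 8 of the 10 genes were called higher in the hsp33 deletion than in wild type, the hsp31 deletion and the hsp32 deletion. Of all genes 57.4%, 2.03% and 22.5% were called in these fits, in either direction. AGA1 and KAR4 correlated at r = 0.983 over the 12 arrays and at r = 0.930 with the group means removed. FUS1 and AGA1 had the highest correlation over the arrays, r = 0.987, but r = -0.490 with group means removed. Over the 45 gene pairs r ran from -0.011 (FUS2 and GPA1) to 0.987 with a median of 0.815, and from -0.609 to 0.930 with a median of 0.147 once group means were removed. These values describe 12 arrays that share groups and slides.

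By the same measure, the genes outside the list most like PRM1 over the 12 arrays were the alpha-cell genes MF(ALPHA)1 (r = 0.984), STE3 (r = 0.970) and MF(ALPHA)2 (r = 0.965). MF(ALPHA)2 was above background on 1 array in each group but the hsp33 deletion, and was tested only through that group. Its r thus mainly sets the hsp33 deletion arrays against signal near background. MF(ALPHA)1 was also the closest to FUS1 (r = 0.968), AGA1 (r = 0.966) and STE12 (r = 0.927). FIG1, a membrane protein induced in mating, was the second closest to FUS1 (r = 0.941). GPA1 had other neighbours, the ribosomal protein gene RPL9A (r = 0.996), the riboflavin gene RIB3 (r = 0.984) and ARD1 (r = 0.984). FUS2 was closest to MATALPHA1 (r = 0.942) and FIG2 (r = 0.917), and FAR1 to TOS6 (r = 0.961), PNP1 (r = 0.945) and RBH2 (r = 0.939). Nearest to KAR4 (r = 0.948) and SST2 (r = 0.935) was MATALPHA2, and to FUS3 it was CKS1 (r = 0.885), a subunit of the cell cycle kinase. The 12 arrays fall in 4 groups, so r here follows the group means.

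Of 71 tested genes of the upstream cascade, the brakes, other targets, polarity, filamentation, the M/G1 phase and mating type regulation, 28 rose and 15 fell in the hsp31 deletion, 29 and 23 in the hsp32 deletion and 33 and 18 in the hsp33 deletion. These are 39.4%, 40.8% and 46.5% higher and 21.1%, 32.4% and 25.4% lower, beside 25.7%, 33.3% and 29.0% higher and 30.4%, 36.7% and 32.4% lower over all genes. Calls in both directions were thus common over all genes too. The median differences of the 71 were 0.072, 0.060 and 0.20. Within slide 1, with 2 arrays against 2, the calls in the hsp31 deletion were 18 higher and 8 lower. In that fit 36.3% of all genes were called, in either direction, so this count is close to the share over all genes.

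**Figure D5:**
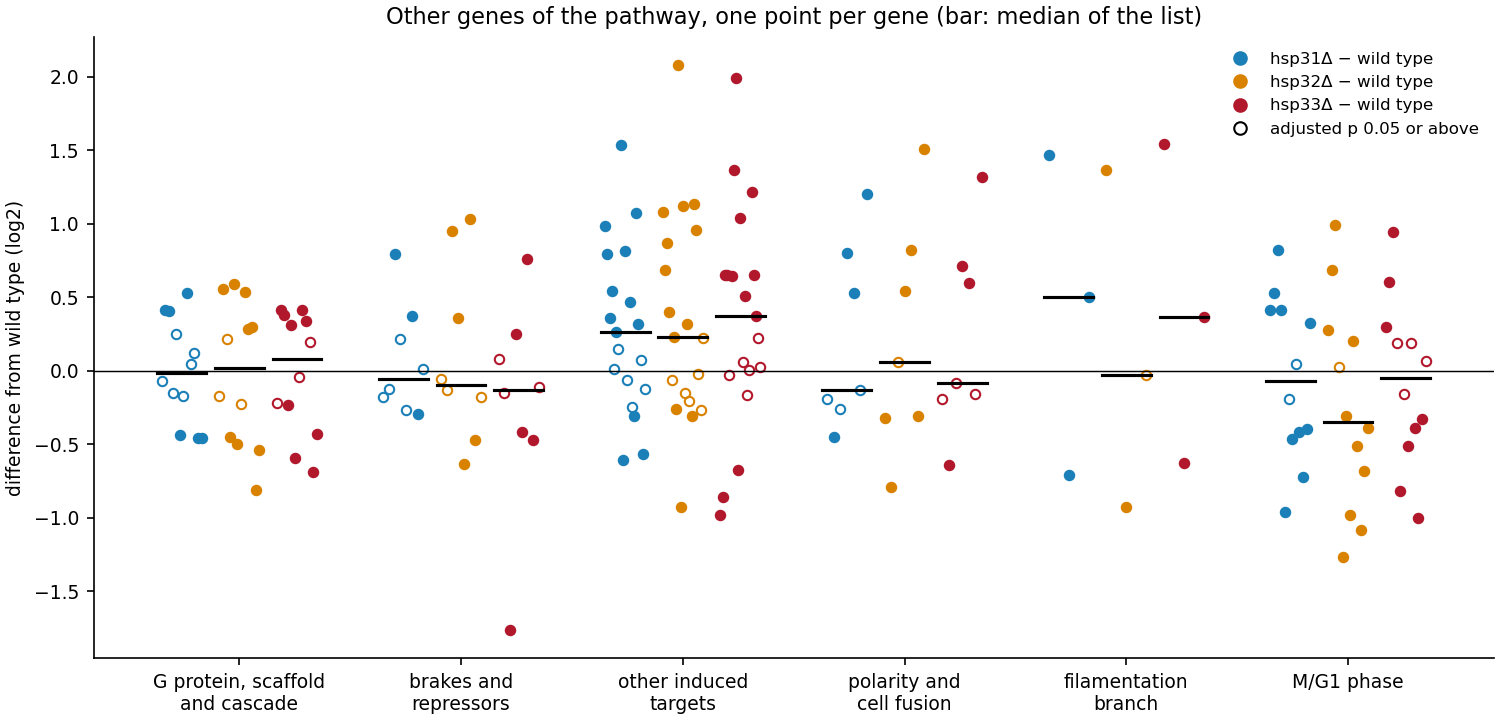
Difference of each deletion from wild type (log2) for the tested genes of 6 lists, 1 point per gene, filled where the limma adjusted p is under 0.05, with a bar at the median of each list. List medians run from -0.35 to 0.50, and every list holds called genes of either sign in all 3 deletions.

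Of the 12 genes of the G protein, scaffold and cascade, 3 rose and 3 fell in the hsp31 deletion, and 5 rose and 4 fell in each of the others, with medians of -0.013, 0.022 and 0.078. This count and those of the lists that follow are to be read against the shares over all genes just given, and nothing is called particular to a list from them. STE50, an adaptor of the kinase Ste11, fell (-0.46 ± 0.098, -0.81 ± 0.098 and -0.69 ± 0.098 for hsp31, hsp32 and hsp33). STE11 itself fell (-0.44 ± 0.083, -0.50 ± 0.083 and -0.59 ± 0.083), as did the next kinase STE7 (-0.46 ± 0.11, -0.54 ± 0.11 and -0.43 ± 0.11). CDC24, the exchange factor of Cdc42, rose (0.41 ± 0.12, 0.56 ± 0.12 and 0.42 ± 0.12). STE20, the kinase at the head of the cascade, rose too (0.53 ± 0.094, 0.54 ± 0.094 and 0.41 ± 0.094). KSS1, the MAP kinase of the filamentation branch, was at 0.25 ± 0.10 in the hsp31 deletion, not called, and rose in the others (0.59 ± 0.10 and 0.31 ± 0.10). In wild type KSS1 was above background on 2 of 3 arrays. Its mean net intensity there was 47.8 against thresholds of 45.7 to 48.7, so the sizes are uncertain. Over the called differences of these 6 genes the limma adjusted p was 0.0171 or below. The calls of STE7 were lost under 75th percentile scaling, and those of STE7 and STE50 in the hsp31 deletion within slide 1.

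Of 8 brakes and repressors 2, 3 and 2 rose and 1, 2 and 3 fell in the hsp31, hsp32 and hsp33 deletions, with medians of -0.056, -0.096 and -0.13. MSG5, the phosphatase that inactivates Fus3, rose in all 3 deletions (0.37 ± 0.10, 1.04 ± 0.10 and 0.76 ± 0.10, limma adjusted p of 0.00805 or below). The phosphatase gene PTP2 fell in all 3 (-0.29 ± 0.097, -0.47 ± 0.097 and -0.47 ± 0.097, limma adjusted p of 0.02 or below). BAR1, the protease of a cells that degrades alpha-factor, rose in the hsp31 and hsp32 deletions (0.79 ± 0.12 and 0.95 ± 0.12) and fell in the hsp33 deletion (-1.76 ± 0.12, limma adjusted p = 4.16e-08). DIG2, a repressor of Ste12, fell in the hsp32 and hsp33 deletions (-0.64 ± 0.11 and -0.41 ± 0.11), the latter not under 75th percentile scaling (-0.14). In the hsp31 deletion the call of PTP2 was lost without wild-type replicate 2 and without hsp31 deletion replicate 1 or 3 (-0.24 to -0.27), and the calls of PTP2 and MSG5 were lost within slide 1.

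Among 19 tested other targets 10 rose and 3 fell in each deletion, with medians of 0.27, 0.23 and 0.38. GIC2, an effector of Cdc42 in polarised growth, rose most (1.53 ± 0.11, 2.08 ± 0.11 and 1.99 ± 0.11). PRM4 rose by 1.07 ± 0.084, 1.14 ± 0.084 and 1.22 ± 0.084 and the kinesin gene KAR3, of nuclear fusion, by 0.81 ± 0.12, 1.12 ± 0.12 and 1.04 ± 0.12. These 3 targets were called in all 3 deletions, with limma adjusted p-values up to 8.42e-05, and PRM4 and KAR3 were not called between the hsp33 and hsp31 deletions (0.14 ± 0.084 and 0.23 ± 0.12). HYM1 fell in all 3 (-0.61 ± 0.10, -0.93 ± 0.10 and -0.67 ± 0.10). FIG2, a wall adhesin of mating cells, differed by 0.15 ± 0.087 in the hsp31 deletion, not called, fell in the hsp32 deletion (-0.26 ± 0.087) and rose in the hsp33 deletion (1.36 ± 0.087, limma adjusted p = 1.78e-08).

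Of 7 polarity and cell fusion genes 3 rose in each deletion and 1, 3 and 1 fell, with medians of -0.13, 0.060 and -0.085. The polarisome genes SPA2 (1.20 ± 0.096, 1.51 ± 0.096 and 1.32 ± 0.096) and PEA2 (0.80 ± 0.11, 0.55 ± 0.11 and 0.71 ± 0.11) rose, as did RVS161, whose product acts with Fus2 in cell fusion (0.53 ± 0.095, 0.82 ± 0.095 and 0.60 ± 0.095). The formin gene BNI1 fell (-0.45 ± 0.11, -0.79 ± 0.11 and -0.64 ± 0.11), its call in the hsp31 deletion being lost within slide 1 (-0.41). For these genes limma gave an adjusted p of 0.00424 or below in the 3 deletions. Between the hsp33 deletion and either of the others 0 of the 7 were called. Over all genes 2.87% were higher and 1.96% lower against the hsp31 deletion, and 9.57% and 9.14% against the hsp32 deletion.

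In the filamentation branch, which shares the upper cascade, the G1 cyclin gene CLN1 rose (1.47 ± 0.085, 1.36 ± 0.085 and 1.54 ± 0.085) and the adhesin gene FLO11 fell (-0.71 ± 0.14, -0.93 ± 0.14 and -0.63 ± 0.14, limma adjusted p of 0.00159 or below), the latter not called in the hsp33 deletion under 75th percentile scaling (-0.28). TEC1, the partner of Ste12 in this branch, rose in the hsp31 deletion (0.50 ± 0.098) and in the hsp33 deletion (0.37 ± 0.098), where the sign turned under median scaling (-0.0087), and was at -0.027 ± 0.098 in the hsp32 deletion, not called. Its call in the hsp31 deletion was lost under median scaling. The 3 tested genes of this list had medians of 0.50, -0.027 and 0.37. Of 12 tested M/G1 genes 5, 4 and 3 rose and 5, 7 and 5 fell, with medians of -0.072, -0.35 and -0.048. The replicative helicase genes CDC47 (0.82 ± 0.10, 0.99 ± 0.10 and 0.94 ± 0.10) and CDC46 (0.53 ± 0.096, 0.69 ± 0.096 and 0.61 ± 0.096) rose, the latter not called in the hsp31 deletion within slide 1 (0.46). NIS1 fell (-0.47 ± 0.12, -0.98 ± 0.12 and -0.51 ± 0.12). The chitinase gene CTS1 (-0.96 ± 0.15, -1.27 ± 0.15 and -0.82 ± 0.15) and the meiosis repressor gene RME1 (-0.73 ± 0.087, -1.08 ± 0.087 and -1.01 ± 0.087) fell as well, with limma adjusted p-values up to 0.000249.

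Among 10 cofactors and mating type regulators 3, 3 and 8 rose and 1, 3 and 1 fell, with medians of 0.26, 0.20 and 0.75. MCM1, the general partner of the mating regulators, rose in the hsp32 and hsp33 deletions (0.74 ± 0.13 and 0.36 ± 0.13). SWI5, an activator of M/G1 genes, rose in all 3 (0.93 ± 0.086, 0.63 ± 0.086 and 0.83 ± 0.086). MATALPHA1 and HMLALPHA1, whose probes read near-identical copies of the alpha1 activator and may share signal, rose in the hsp33 deletion (2.01 ± 0.18 and 2.10 ± 0.13, limma adjusted p of 4.16e-07 or below), where the a1 signal was not above background. In the hsp32 deletion both fell (-0.77 ± 0.18 and -0.58 ± 0.13), the first not called under 75th percentile scaling (-0.40).

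The authors' deposited tables of single spots, which hold those with an unadjusted p of 0.05 or below from a test that is not named, listed 13 of the 20 spots of the 10 genes for the hsp31 deletion, 16 for the hsp32 deletion and 17 for the hsp33 deletion. In the authors' deposited tables the ratio was above 1 for 12, 15 and 17 of these spots, and the exceptions were 1 spot of FUS3 in the hsp31 deletion and 1 of FUS2 in the hsp32 deletion. The spots of FUS3 were not listed for the other deletions in the authors' deposited tables.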

How the data were processed

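RNA of 12 samples was labelled with Cy3 (Low Input Quick Amp, per the labels) and read on 1 array each. The authors' deposited scanner files hold foreground and local background intensity per spot, not normalized, and the percent of saturated pixels. The deposited series values are the median foreground intensity. The authors' deposited comparison tables hold a p-value and a ratio (unit other) per spot; ratios above 1 have mostly lost their decimal point, so only the side of 1 was read. Scanner, software and genome build are not given in the sources used here.

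Background was corrected by normexp (offset 50) on mean foreground and median background, gene spots were quantile normalized, and the 2 spots of a probe averaged on the log2 scale. A probe was above background where its net intensity exceeded the median of 77 negative controls by 2 SD, and 5863 genes were tested, those that passed this on every array of 1 group or more. One limma model (limma 3.58.1, R 4.3.3) with 4 group means, 8 residual and 5.53 prior degrees of freedom gave 6 comparisons, with Benjamini-Hochberg adjustment over all genes of a comparison. Precision is limited by the number of arrays. Slides were inferred from array positions and scan offsets in the files.

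The 10 genes, the gene lists and the tests were chosen with earlier results of these data known. All 10 are named; of each other list up to 4 genes per comparison with wild type, those with the largest called change, are named. One gene that this rule would name is not reported here. Lists were the G protein, scaffold and cascade, brakes and repressors, other targets, polarity and fusion, filamentation, M/G1 phase, cofactors and mating type regulators, and markers of a, alpha, haploid and sporulating cells. PRM3, PGU1, CDC6 and SPO13 were too dim to test. Same-numbered arrays were not treated as pairs: with group means removed, same-numbered arrays correlated at a mean r of 0.035, -0.033 and -0.013. Alternatives covered scaling, background correction, filters, spot summary, slide, replicate block and leaving out each array.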

Additional observations from a re-analysis of the deposited data

Results flagged for a closer look

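Some genes moved in opposite directions in different deletions, with all 3 arrays of each deletion on opposite sides of wild type. They were picked for that pattern on these same arrays. The direct differences between deletions in this section are therefore a description and carry no p-value. FUS2 was -0.30 log2 from wild type in the hsp32 deletion and 0.34 in the hsp33 deletion, and FIG2 was -0.26 and 1.36. The hsp33 deletion exceeded the hsp32 deletion by 0.64 ± 0.081 for FUS2 and by 1.62 ± 0.087 for FIG2.

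The a-cell genes were higher than wild type in the hsp31 deletion and lower in the hsp33 deletion: MFA1 (1.59 and -2.02), MFA2 (1.38 and -2.45), STE2 (0.96 and -1.34), STE6 (0.88 and -0.92), BAR1 (0.79 and -1.76), AGA2 (0.98 and -0.98) and ASG7 (0.79 and -0.86). The direct differences between these deletions ran from -3.83 (MFA2) to -1.65 (ASG7). Some alpha-type genes moved the other way, but MF(ALPHA)1 was called higher than wild type in every deletion. HMLALPHA1 was -0.44 in the hsp31 deletion and 2.10 in the hsp33 deletion. In the hsp32 and hsp33 deletions MATALPHA1 was -0.77 and 2.01, and SAG1 -0.41 and 1.59. The direct differences were 2.54 ± 0.13 for HMLALPHA1, 2.78 ± 0.18 for MATALPHA1 and 2.002 ± 0.092 for SAG1. SWI4, a G1 transcription factor gene, was 0.32 in the hsp31 deletion and -0.39 in the hsp32 deletion, a difference of -0.72 ± 0.091. Under 75th percentile scaling the differences of FUS2, MATALPHA1 and SAG1 in the hsp32 deletion (-0.045, -0.40 and -0.097) and of HMLALPHA1 in the hsp31 deletion (-0.0895) were not called, and the last was not called under median scaling (-0.29) or cyclic loess (-0.34) either.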

How the results depend on the processing

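The counts of called genes among the 10 pheromone response genes stayed within 1.5 times their main value in every alternative run for 5 of the 6 comparisons. With 1 array left out they ran from 5 to 7 (hsp31 deletion against wild type), 8 to 9 (hsp32 against wild type), 10 to 10 (hsp33 against wild type), 7 to 9 (hsp33 against hsp31) and 8 to 9 (hsp33 against hsp32). Over all genes the shares called were, in order, 48.8% to 57.3%, 64.7% to 73.5%, 55.8% to 65.7%, 1.64% to 6.81% and 8.6% to 23%. For the hsp32 against the hsp31 deletion the count of 4 became 1 with the slide as a block, 1 on the 2 groups alone and 1 to 3 with 1 array left out. Of all genes 34.8%, 29.1% and 31.4% to 38.3% were called in these fits. With the replicate block the counts were 7, 9 and 10 against wild type, and 3, 8 and 8 for hsp32 against hsp31, hsp33 against hsp31 and hsp33 against hsp32, and for the other pathway genes 44, 51 and 51 against 43, 52 and 51 without it. Over all genes this block gave 55.3%, 69.2% and 60.4% called against wild type and 36.7%, 6.43% and 18.6% between deletions. The best correlation of 6 of the 12 arrays was with same-numbered arrays. Other pathway genes called in the hsp31 deletion fell from 43 to 26 within slide 1, by construction a fit on fewer arrays, and ran from 41 to 46, 47 to 54 and 47 to 53 in the 3 deletions with 1 array left out. Over all genes the share called in the hsp31 deletion fell from 56.1% to 36.3% within slide 1. In the hsp33 deletion IME1 (-0.36) turned to 0.0059 under 75th percentile scaling and TEC1 (0.37) to -0.0087 under median scaling, and the cause was not tested. Slide values with at least 2 arrays of both groups exist within slide 1 for the hsp31 deletion against wild type (6 of the 10 genes called) and within slide 2 for the hsp33 against the hsp32 deletion (6 called, without SST2, STE12 and FUS3). Of all genes 36.3% and 15% were called in these 2 fits, in either direction. Signal over background limits FUS2, PRM1 and FAR1, which were near the threshold in wild type. Added after seeing the data were a quantile normalization with empty spots and a threshold for hsp32 deletion replicate 2 taken from the other arrays. Neither moved a count by over 1.5 times.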
